A study of Homo sapiens with 4 samples.

Results

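The BCL2 family sets whether the outer mitochondrial membrane stays closed. Here 10 of its genes were followed by symbol, all of them present among the 15201 genes of the table and all among the 13411 with a mean of at least 1 FPKM (fragments mapped to a gene, scaled by transcript length and by library size) that were tested. BCL2A1 met that minimum through CfzR replicate 2. They are the pro-survival genes BCL2, MCL1, BCL2L1 and BCL2A1, the effectors BAX and BAK1, and the BH3-only genes BID, BMF, BCL2L11 and PMAIP1. RNA was sequenced from ARP-1, a human multiple myeloma line: 2 libraries came from cells labelled as resistant to carfilzomib (CfzR) and 2 from wild-type cells (WT). Carfilzomib is an irreversible inhibitor of the proteasome. The labels state neither how resistance was obtained, nor whether the resistant line is 1 clone, nor whether the drug was present when RNA was taken. Nothing in them ties a replicate to a culture of its own, so the p-values reflect library-to-library spread that could be purely technical.

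Pro-survival proteins such as BCL2, BCL-XL (from BCL2L1) and MCL1 hold the effectors BAX and BAK in check. BH3-only proteins are induced or activated by stress, bind the groove of the pro-survival proteins and, for some of them, activate the effectors directly, after which cytochrome c leaves the mitochondria and caspases are activated. Plasma cells and most myelomas depend strongly on MCL1, a protein with a short life that the proteasome degrades, and proteasome inhibitors are known to induce the BH3-only protein NOXA (from PMAIP1). Protein levels and turnover were not measured here. Values per gene also merge splice forms, and for MCL1, BCL2L1 and BCL2L11 short and long forms differ in activity.

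The plasma cell label was met by the data. All 9 plasma cell markers had values, and their summed level was 20337 and 23799 FPKM in CfzR and 19693 and 15792 FPKM in WT. IGKC was the larger part of each sum, at 13684 and 17706 FPKM in CfzR and 13828 and 9844 FPKM in WT. SDC1, PRDM1 and JCHAIN were higher in both CfzR libraries than in both WT libraries, TNFRSF17 and XBP1 were lower and the others overlapped. Over all tested genes 22.1% were higher and 22.6% lower by that count. The 5 B cell and 5 T cell markers were not analysed here, and of 5 myeloid and 7 stromal or epithelial markers CD68, KRT8 and KRT18 had values. CD68 stood at 2.10 and 1.09 FPKM in CfzR and 0.681 and 0.848 FPKM in WT. The sum of KRT8 and KRT18 was 2.10 and 3.70 FPKM in CfzR and 6.28 and 6.79 FPKM in WT. Their part in the results below was not tested. In bulk RNA, fewer cells that express a gene and less of its RNA per cell cannot be told apart.

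Across the family, BCL2, BMF and PMAIP1 were higher and BAK1 was lower in both CfzR libraries than in both WT libraries, and BCL2L1 was higher by a small margin. MCL1, BCL2A1, BAX, BID and BCL2L11 overlapped between the groups. No member passed the threshold of 0.05 on the adjusted p (limma on log2(FPKM + 1), Benjamini-Hochberg over all genes tested), where 0.350% of all tested genes passed, 0.246% as higher in CfzR and 0.104% as lower. The unadjusted p lay under 0.05 for 4 of 10 members, against 11.1% of all tested genes. Of these 4, 3 were higher in CfzR, as were 5.32% of all tested genes, and 1 was lower, as were 5.81%. The groups did not overlap for 5 of 10 members, against 44.7% of all tested genes, a share close to that background. Of these 5, 4 were higher in CfzR (22.1% of all tested genes) and 1 was lower (22.6%). The median log2 fold change of the 10 members was 0.20, and that of all tested genes was -0.02.

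**Figure D1:**
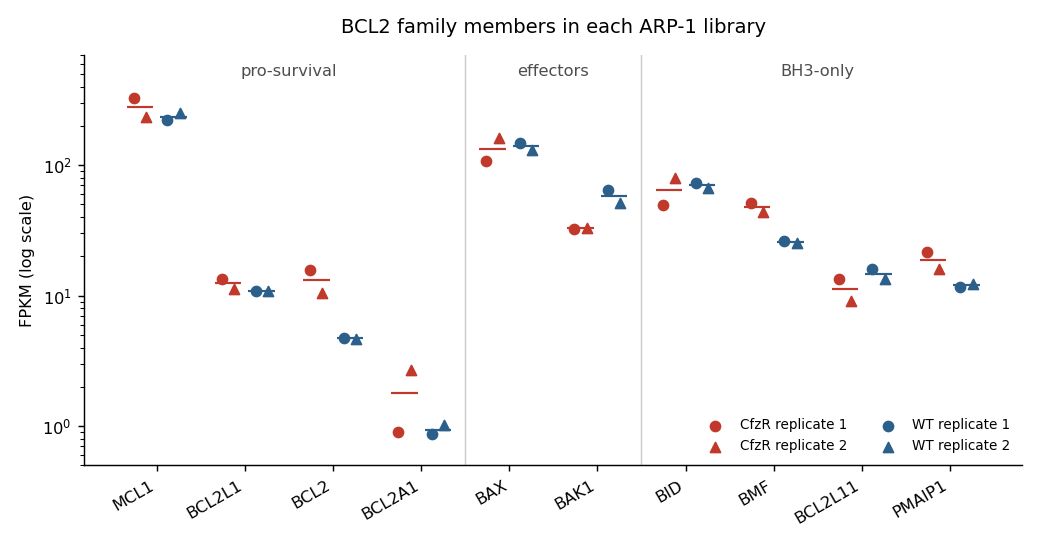
FPKM of each member (y axis, log scale) in each library (x axis, members by role); red marks are CfzR, blue marks WT, circles replicate 1, triangles replicate 2, and horizontal lines are group means. MCL1 is the most abundant pro-survival gene in all 4 libraries, BCL2 stands at 15.7 and 10.5 FPKM in CfzR against 4.77 and 4.67 FPKM in WT, and BAK1 is near 32.7 FPKM in both CfzR libraries.

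Among the pro-survival genes, BCL2 showed the largest difference of any member. BCL2 encodes the founding member of the family, which sits on the outer mitochondrial membrane and the endoplasmic reticulum and is the target of venetoclax. Its level was 15.7 and 10.5 FPKM in CfzR replicates 1 and 2, and 4.77 and 4.67 FPKM in WT replicates 1 and 2. Both CfzR libraries lay above both WT libraries, and the CfzR libraries differed from each other far more than the WT libraries did. The means were 13.1 ± 3.68 FPKM in CfzR and 4.72 ± 0.0714 FPKM in WT (SD, n = 2 each), a ratio of 2.77. The log2 fold change was 1.28 (SE 0.24, 95% interval 0.71 to 1.84, limma adjusted p = 0.118). A higher log2 fold change was seen in 0.813% of tested genes.

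MCL1 encodes the survival factor on which plasma cells depend most. It stood at 328 and 233 FPKM in CfzR and at 223 and 249 FPKM in WT. CfzR replicate 1 was above both WT libraries and CfzR replicate 2 lay between them. The log2 fold change was 0.23 (SE 0.27, 95% interval -0.40 to 0.86, limma adjusted p = 0.744). Leaving out CfzR replicate 1 gave -0.02, and leaving out CfzR replicate 2 gave 0.48. Its interval reaches changes of over 0.8 on the log2 scale, so the value does not show equal levels of MCL1.

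BCL2L1, the gene of BCL-XL, stood at 13.5 and 11.3 FPKM in CfzR and at 10.8 FPKM in both WT libraries. The groups did not overlap, but the margin between CfzR replicate 2 and WT was small beside the distance between the CfzR replicates. The log2 fold change was 0.18 (SE 0.20, limma adjusted p = 0.737), and it was 0.06 without CfzR replicate 1. BCL2A1, an NF-kB target that encodes a further survival factor, was the lowest member throughout, at 0.896 and 2.67 FPKM in CfzR and 0.863 and 1.01 FPKM in WT. Only CfzR replicate 2 stood above WT, with the other CfzR library within the WT range (log2 fold change 0.45, SE 0.35, limma adjusted p = 0.646; -0.03 without CfzR replicate 2).

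FPKM is scaled by length, so levels of different genes can be set side by side, but only roughly. A trend with transcript length remained that differed between the libraries (given below). In both WT libraries the order was MCL1, BCL2L1, BCL2, BCL2A1, with BCL2 at less than the level of BCL2L1. In CfzR the levels of BCL2 (15.7 and 10.5 FPKM) and BCL2L1 (13.5 and 11.3 FPKM) overlapped, so neither stood above the other beyond their spread. MCL1 made up 91.6% and 90.5% of the summed FPKM of the 4 pro-survival genes in CfzR, and 93.1% and 93.8% in WT. The share of BCL2 in that sum was 4.38% and 4.08% in CfzR and 1.996% and 1.76% in WT. The share of BCL2 was similar in the CfzR libraries although its level was not.

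The effectors form the pore in the outer membrane. BAK1 encodes BAK, which resides on mitochondria and is held by MCL1 and BCL-XL. BAK1 stood at 32.65 and 32.74 FPKM in CfzR and at 64.4 and 51.6 FPKM in WT. Both CfzR libraries lay below both WT libraries, and here it was the WT pair that differed. The mean was 32.7 ± 0.0598 FPKM in CfzR and 58.0 ± 9.09 FPKM in WT (SD, n = 2 each), so the WT mean was 1.77 times the CfzR mean. The log2 fold change was -0.80 (SE 0.20, 95% interval -1.28 to -0.32, limma adjusted p = 0.222), and it lay between -0.96 and -0.64 when any 1 library was left out. A lower log2 fold change was seen in 3.57% of tested genes.

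BAX encodes the effector that moves from the cytosol to mitochondria, and it was the most abundant pro-apoptotic member. It stood at 107 and 160 FPKM in CfzR and at 148 and 131 FPKM in WT. The CfzR libraries lay on both sides of the WT pair (log2 fold change -0.09, SE 0.26, limma adjusted p = 0.912), and the direction turned to 0.13 once length and GC share of transcripts were corrected for and to 0.11 under quantile normalization. The ratio of BAK1 to BAX, chosen after the values were seen, was 0.304 and 0.205 in CfzR and 0.436 and 0.393 in WT. Within each CfzR library BAK1 was thus lower relative to BAX than in any WT library.

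Of the BH3-only genes, BMF and PMAIP1 were higher in both CfzR libraries, and BID and BCL2L11 overlapped with WT. BMF encodes a protein held at the cytoskeleton in healthy cells that binds BCL2 and related survival proteins when released. It stood at 51.5 and 44.1 FPKM in CfzR and at 26.4 and 25.1 FPKM in WT. Each CfzR library lay well above the WT pair. The means were 47.8 ± 5.28 FPKM in CfzR and 25.7 ± 0.918 FPKM in WT (SD, n = 2 each), a ratio of 1.86, with a log2 fold change of 0.86 (SE 0.19, 95% interval 0.40 to 1.32, limma adjusted p = 0.174). A higher log2 fold change was seen in 2.34% of tested genes.

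PMAIP1, which encodes NOXA, a selective antagonist of MCL1, stood at 21.4 and 16.0 FPKM in CfzR and at 11.6 and 12.4 FPKM in WT. Both CfzR libraries were above WT, replicate 1 more than replicate 2. The ratio of means was 1.56 and the log2 fold change 0.59 (SE 0.21, 95% interval 0.08 to 1.09, limma adjusted p = 0.379). A higher log2 fold change was seen in 5.52% of tested genes.

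BID, whose protein is cut by caspase-8 and links death receptors to mitochondria, stood at 49.3 and 79.9 FPKM in CfzR and at 72.7 and 67.2 FPKM in WT. The CfzR libraries again lay on both sides of WT (log2 fold change -0.15, SE 0.27, limma adjusted p = 0.831; 0.19 without CfzR replicate 1). BCL2L11, which encodes BIM, a BH3-only protein that binds all pro-survival members, stood at 13.5 and 9.09 FPKM in CfzR and at 16.1 and 13.4 FPKM in WT. CfzR replicate 1 was within the WT range by a narrow margin and CfzR replicate 2 below it (log2 fold change -0.38, SE 0.24, 95% interval -0.95 to 0.19, limma adjusted p = 0.573). Leaving out CfzR replicate 1 gave -0.64, and leaving out CfzR replicate 2 gave -0.12. Whether reads were counted by strand is not given, and the span of BCL2L11 is overlapped on the opposite strand by the noncoding gene MIR4435-2HG (named after its values were seen), at 77.1 and 124 FPKM in CfzR and 182 and 218 FPKM in WT. The level of BCL2L11 is therefore uncertain, although the overlap was read from whole gene spans and not from exons. BAK1, BCL2, BCL2L1 and BMF are also overlapped on the opposite strand, by genes without values here.

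The make-up of the 4 BH3-only members differed more than their total. The summed FPKM of the 4 genes was 136 and 149 in CfzR and 127 and 118 in WT. The BH3-only genes BAD, BBC3 and BIK, given below, are not in this sum, so it is not the total of all BH3-only genes. BMF took 37.98% and 29.6% of that sum in CfzR and 20.8% and 21.3% in WT. BID took 36.3% and 53.6% in CfzR and 57.3% and 56.9% in WT, so BID was above BMF in both WT libraries and in CfzR replicate 2, and BMF was slightly above BID in CfzR replicate 1. The ratio of BMF to BCL2L11, chosen after the values were seen, was 3.83 and 4.85 in CfzR and 1.64 and 1.88 in WT.

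**Figure D2:**
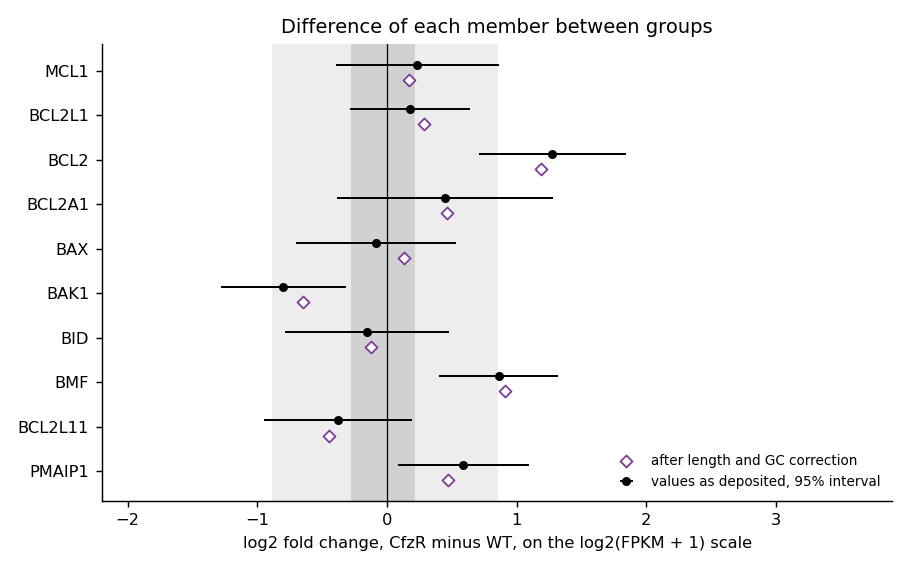
Log2 fold change of each member, CfzR minus WT, on the log2(FPKM + 1) scale (x axis), from the limma fit on the deposited values (black points with 95% intervals) and with libraries corrected for length and GC (open diamonds). The grey bands hold the middle 50% (-0.27 to 0.21) and 95% (-0.88 to 0.85) of all tested genes: BCL2 and, narrowly, BMF lie beyond the wider band, BAK1 lies inside it, and the direction of BAX turns under the correction.

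Ratios were formed within each library, which removes any scaling common to the library. It does not remove a trend with transcript length that differs between libraries, as seen between the CfzR replicates below. The longest transcript of BCL2 has 7461 bases and that of BAX 1358. Ratios to single members are given without a length and GC correction. The comparison asks how the survival genes BCL2, MCL1 and BCL2L1 stand against the pro-apoptotic members. For BCL2, all 6 ratios were higher in both CfzR libraries than in both WT libraries, whereas for MCL1 and for BCL2L1 the result depended on the partner: 2 ratios were higher, 2 were lower and 2 overlapped for each. In all, 21 ratios were compared, 18 to single members and 3 to the sum of the 6. With 2 libraries against 2, an exact two-sided permutation test cannot go below p = 0.333, and the smallest Benjamini-Hochberg adjusted value over the 21 was 0.467, so none could pass. The ratios of a gene share its value and are not independent of each other, so the 6 of BCL2 are not 6 separate results. How often ratios of other genes do not overlap between the groups was not computed. Of single tested genes, 44.7% did not overlap.

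BCL2 over the summed FPKM of the 6 pro-apoptotic genes was 0.0569 and 0.0307 in CfzR and 0.0141 and 0.0155 in WT. Both CfzR libraries were above WT, with replicate 1 at 3.85 times and replicate 2 at 2.08 times the geometric mean of WT. The ratio of the geometric means was 2.83, and the log2 difference was 1.29 once libraries were corrected for length and GC. BCL2 over BCL2L11 was the most even of these ratios within CfzR, at 1.17 and 1.15 in CfzR and 0.296 and 0.349 in WT, above 1 in both CfzR libraries and below 1 in both WT libraries. This order is as uncertain as the level of BCL2L11, since the overlapping MIR4435-2HG was lower in CfzR than in WT and its part in the ratio was not tested. BCL2 over BAK1 had the largest log2 difference of the 21, 2.26, with ratios of 0.481 and 0.320 in CfzR and 0.0741 and 0.0906 in WT. BCL2 over BAX was 0.146 and 0.0655 in CfzR and 0.0323 and 0.0356 in WT. BCL2 over BID was 0.319 and 0.131 in CfzR and 0.0656 and 0.0695 in WT. For BAX and BID the CfzR libraries differed by over 2 times from each other, though neither reached the WT values. The smallest differences were against the members that were themselves higher in CfzR. BCL2 over BMF was 0.305 and 0.238 in CfzR and 0.181 and 0.186 in WT. BCL2 over PMAIP1 was 0.734 and 0.657 in CfzR and 0.412 and 0.378 in WT.

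MCL1 over the sum of the 6 was 1.19 and 0.681 in CfzR and 0.657 and 0.827 in WT. The groups overlapped, with a log2 difference of 0.29, and of -0.11 without CfzR replicate 1. MCL1 over PMAIP1, the gene of its antagonist, was 15.4 and 14.6 in CfzR and 19.2 and 20.1 in WT. This ratio was lower in both CfzR libraries, by a log2 difference of -0.39. MCL1 over BMF was likewise lower, at 6.38 and 5.28 in CfzR and 8.43 and 9.91 in WT. MCL1 over BAK1 was higher, at 10.1 and 7.11 in CfzR and 3.45 and 4.82 in WT, and so was MCL1 over BCL2L11, at 24.4 and 25.6 in CfzR and 13.8 and 18.6 in WT. MCL1 over BAX and over BID overlapped, with ratios of 3.06 and 1.45 in CfzR and 1.51 and 1.89 in WT for BAX. CfzR replicate 1 alone was above WT for both.

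BCL2L1 was higher, lower or overlapping against the same partners as MCL1. Both were divided by the same 6 genes, so this likeness is not a separate result. Over the sum of the 6, BCL2L1 was 0.0489 and 0.0331 in CfzR and 0.0319 and 0.0360 in WT. The groups overlapped, with a log2 difference of 0.25. BCL2L1 over BAK1 was 0.413 and 0.345 in CfzR and 0.168 and 0.210 in WT. BCL2L1 over BMF was 0.262 and 0.257 in CfzR and 0.409 and 0.432 in WT. The first was higher and the second lower in both CfzR libraries, by log2 differences of 1.01 and -0.70. BCL2L1 over BCL2L11 had a log2 difference of 0.60 and BCL2L1 over PMAIP1 one of -0.44, with groups that did not overlap in either.

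**Figure D3:**
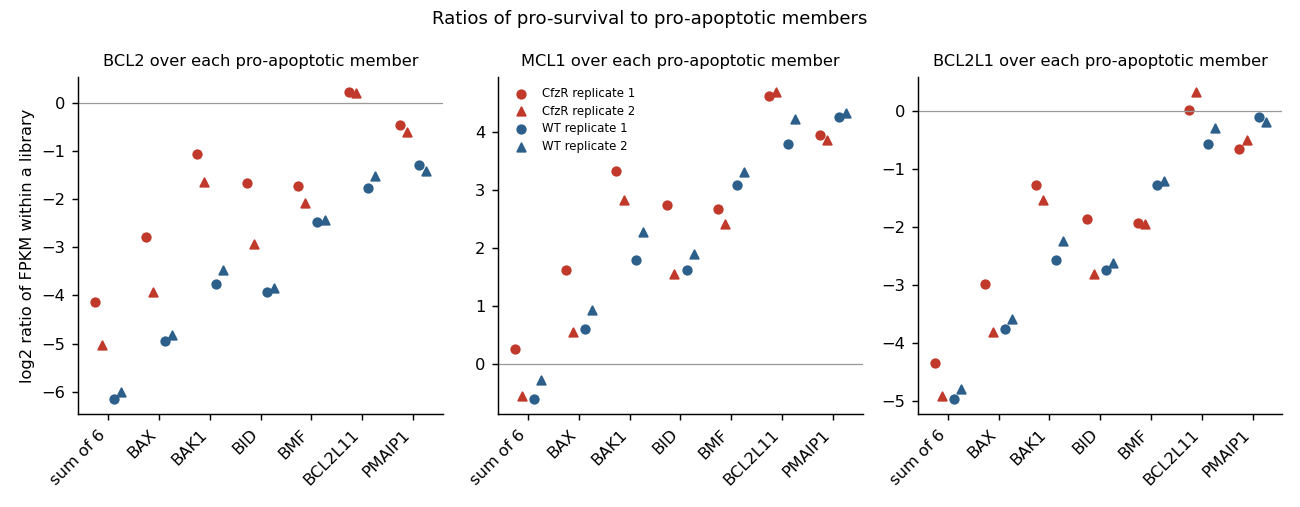
Log2 ratio of FPKM (y axis) of BCL2, MCL1 and BCL2L1 (panels, each with its own scale) over the sum of the 6 pro-apoptotic members and over each of them (x axis), 1 mark per library with colours and shapes as in the plot of FPKM by member. All red marks lie above the blue ones in the BCL2 panel, while in the other panels they lie above for BAK1 and BCL2L11, below for BMF and PMAIP1, and on both sides of the blue marks or among them for BAX, BID and the sum.

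The CfzR replicates differed from each other in a way that follows transcript length, and the members span a wide range of it. Over the 12896 tested genes with a length, the log2 difference of CfzR replicate 1 minus replicate 2 had a Spearman correlation of 0.466 with the length of the longest transcript and -0.350 with its GC share, across genes, which are not independent. The same values were 0.146 and 0.0793 for the WT pair. BCL2, with a longest transcript of 7461 bases, was 0.54 higher in CfzR replicate 1 than in replicate 2 on the log2(FPKM + 1) scale, and BCL2L11 (5231 bases) and MCL1 (3932 bases) were 0.52 and 0.49 higher. BAX (1358 bases) and BCL2A1 (1033 bases) were 0.57 and 0.95 lower in replicate 1 by the same measure. BID (2495 bases) was 0.69 lower and PMAIP1 (1948 bases) 0.40 higher, although they are of similar length, so length did not order all members. After a correction of each library for length and GC share, the log2 fold changes were 1.19 for BCL2 (SE 0.18, limma adjusted p = 0.0888), 0.91 for BMF (SE 0.15, adjusted p = 0.101), -0.65 for BAK1 (SE 0.18, adjusted p = 0.228) and 0.47 for PMAIP1 (SE 0.19, adjusted p = 0.345). Leaving out CfzR replicate 1, the log2 fold changes of BCL2, BMF, BAK1 and PMAIP1 were 1.01, 0.75, -0.80 and 0.39.

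**Figure D4:**
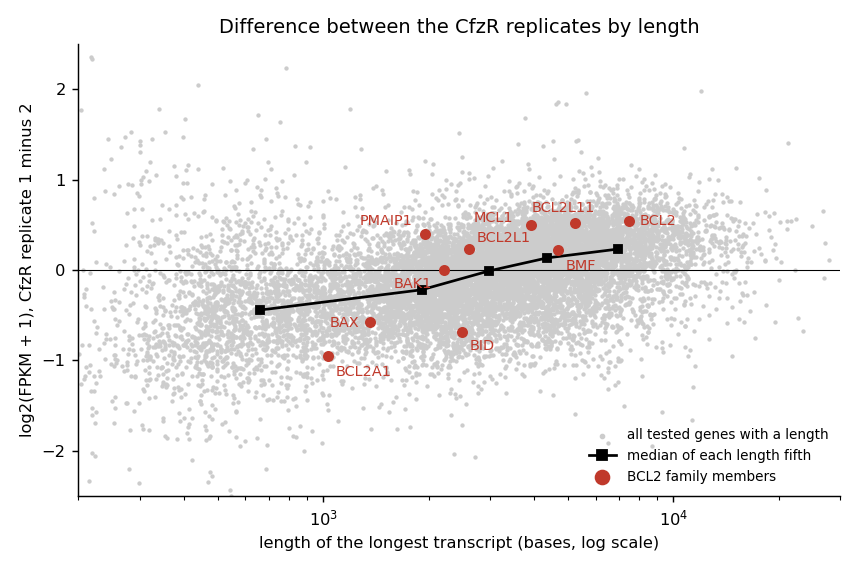
Log2(FPKM + 1) in CfzR replicate 1 minus replicate 2 (y axis) against the length of the longest transcript (x axis, log scale) for 12896 tested genes in grey, of which 70 lie outside the plotted range, with the median of each of 5 length bins in black and the members in red. The black line runs from -0.44 for the shortest bin to 0.23 for the longest, with BCL2A1 and BAX at the lower left and BCL2 at the upper right.

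The members lie at 10 places in the genome. Coordinates were looked up by gene ID in GENCODE 29 on GRCh38. The build used for the deposited values is not given in the sources used here. BCL2 spans 63123346 to 63320128 on the minus strand of chromosome 18, and PMAIP1 spans 59899948 to 59904306 on the plus strand of the same chromosome, 3.22 Mb away. Both were higher in CfzR. Of the 8 tested genes within 1 Mb of BCL2, 6 had positive log2 fold changes (median 0.30), where 47.1% of all tested genes did. After the length and GC correction 7 of the 8 were positive (median 0.14). In that window 4 genes were higher in both CfzR libraries than in both WT libraries and 1 was lower, where 22.1% and 22.6% of all tested genes were. Of 3 tested genes within 1 Mb of PMAIP1, 2 were positive (median 0.53). Of the 6 tested genes between BCL2 and PMAIP1, 3 were positive (median -0.00), and by the same count against those shares 2 were higher and 2 were lower. All 6 also lie within 1 Mb of BCL2 or of PMAIP1, so these counts are not separate. Over chromosome 18, 112 of 193 tested genes were positive (median 0.08), 59 were higher by that count and 29 were lower. After the length and GC correction 98 of the 193 were positive, with a median of 0.01. None of these genes passed the adjusted threshold, and whether position had a part in the values was not tested. BAK1 spans 33572547 to 33580293 on the minus strand of chromosome 6. All 11 tested genes with a position within 1 Mb of it were below 0 on the log2 scale (median -0.47). Of these, 9 were lower in both CfzR libraries than in both WT libraries, against 22.6% of all tested genes. All 11 started at 33620365 or beyond, so they lie on the same side of BAK1 and its other side is not covered. Positions were found for 14492 of the 15201 genes, and genes without a position were not counted. After the length and GC correction 10 of the 11 stayed negative, with a median of -0.53. None of the 11 passed the adjusted threshold. This window was singled out after its values were seen, and RPS10, NUDT3 and their readthrough gene in it share exons, so their values are not separate. UQCC2 and LEMD2, the genes of this window with an unadjusted p under 0.05 in limma, were named after their values were seen. UQCC2, an assembly factor of respiratory complex III, stood at 18.3 and 26.4 FPKM in CfzR and 38.6 and 35.0 FPKM in WT. LEMD2, a protein of the inner nuclear membrane, stood at 46.3 and 58.3 FPKM in CfzR and 75.3 and 78.8 FPKM in WT. The window of BCL2L11 on chromosome 2 (111119378 to 111168447) had 1 positive gene of 8, with a median of -0.38, and of -0.50 after the correction. In it 0 genes were higher in both CfzR libraries and 5 were lower, against 22.1% and 22.6% of all tested genes. The window of BMF on chromosome 15 (40087890 to 40108892) had 15 positive of 27 and a median of 0.09. In it 10 genes were higher in both CfzR libraries and 6 were lower, against the same shares. After the length and GC correction 19 of the 27 were positive, with a median of 0.07. In the windows of MCL1 and BAX, 37 of 57 and 14 of 62 tested genes were positive (medians 0.17 and -0.20). After the length and GC correction 38 of the 57 and 26 of the 62 were positive, with medians of 0.20 and -0.09. By the count of both libraries, 16 were higher and 7 lower near MCL1, and 1 higher and 22 lower near BAX. The shares over all tested genes were 22.1% and 22.6%. In the windows of BCL2L1, BCL2A1 and BID, 5 of 13, 6 of 11 and 8 of 12 were positive. After the correction 5, 5 and 9 were.

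Promoter windows are shown for the members with an unadjusted p under 0.05, of which BCL2, BMF and PMAIP1 were higher and BAK1 was lower. Each is the 250 bases before a RefSeq start site in GRCh38.p14, 5′ to 3′ on the gene's strand. Capitals mark matches on either strand to any of 5 motifs: the cAMP response element TGACGTCA, the E-box CACGTG, the CCAAT box CCAAT, the GC box GGGCGG and the FOXO element GTAAACA. The windows are chr18:63319770-63320019 on the minus strand for BCL2, chr15:40108880-40109129 on the minus strand for the first of the start sites listed for BMF, chr18:59899746-59899995 on the plus strand for PMAIP1 and chr6:33580277-33580526 on the minus strand for BAK1.
BCL2: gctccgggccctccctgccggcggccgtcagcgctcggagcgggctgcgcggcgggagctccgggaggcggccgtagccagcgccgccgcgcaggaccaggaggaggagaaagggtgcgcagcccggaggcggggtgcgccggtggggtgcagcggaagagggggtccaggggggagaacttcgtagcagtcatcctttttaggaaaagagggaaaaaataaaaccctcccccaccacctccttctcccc
BMF: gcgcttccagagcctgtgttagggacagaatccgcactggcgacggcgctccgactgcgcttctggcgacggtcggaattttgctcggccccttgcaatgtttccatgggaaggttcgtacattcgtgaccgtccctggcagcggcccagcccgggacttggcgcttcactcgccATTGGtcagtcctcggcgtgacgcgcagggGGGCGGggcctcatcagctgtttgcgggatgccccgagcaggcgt
PMAIP1: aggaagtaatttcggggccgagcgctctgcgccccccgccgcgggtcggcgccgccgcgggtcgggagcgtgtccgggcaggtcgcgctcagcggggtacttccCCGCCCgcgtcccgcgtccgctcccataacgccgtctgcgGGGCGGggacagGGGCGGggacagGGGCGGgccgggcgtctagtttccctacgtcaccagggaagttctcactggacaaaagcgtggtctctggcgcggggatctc
BAK1: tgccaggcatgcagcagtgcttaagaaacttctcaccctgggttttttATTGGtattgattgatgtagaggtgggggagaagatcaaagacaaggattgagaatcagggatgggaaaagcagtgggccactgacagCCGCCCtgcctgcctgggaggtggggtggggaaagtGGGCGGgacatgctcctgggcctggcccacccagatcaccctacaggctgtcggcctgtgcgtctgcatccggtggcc

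The BCL2 window held none of these letters. The window shown for BMF held 1 CCAAT box and 1 GC box. The window of the other start site listed for BMF, not shown, held none of the 5 motifs. That of PMAIP1 held 4 GC boxes, and that of BAK1 held 1 CCAAT box and 2 GC boxes. Over 34943 promoter windows of the same length, a GC box was found in 42.5% and a CCAAT box in 32.0%, so these matches are common. No motif of the 5 separated BAK1 from the members that were higher. The cAMP response element was in 1.63%, the E-box in 6.32% and the FOXO element in 2.98% of all windows. Windows were matched for 9 of the 10 members, not for MCL1. The BAX window held 4 E-boxes and that of BCL2L11, a known FOXO target, held 1 FOXO element. A match is a run of letters and not a site shown to be bound.

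Genes around the family were read from lists written with earlier results of these data known. No gene of these 7 lists passed the adjusted threshold in limma, so each list is given by its counts. Of all tested genes, 47.1% had a positive log2 fold change. Of 7 further BCL2 family genes with a test, 4 had positive log2 fold changes (median 0.14). The most abundant were BCL2L12, a nuclear relative of the family, with 140 and 198 FPKM in CfzR and 217 and 269 FPKM in WT, BAD, a BH3-only protein controlled by phosphorylation, and BBC3, the gene of PUMA. BAD stood at 92.5 and 162 FPKM in CfzR and at 143 and 173 FPKM in WT. BBC3 stood at 48.3 and 56.1 FPKM in CfzR and at 71.4 and 57.5 FPKM in WT, so CfzR was below WT by a narrow margin (log2 fold change -0.29, limma adjusted p = 0.614). That value was -0.14 without WT replicate 1, -0.45 without WT replicate 2. With libraries corrected for length and GC it was -0.11. BIK, a BH3-only gene named after its values were seen, stood at 4.51 and 5.78 FPKM in CfzR and at 2.43 and 2.82 FPKM in WT (log2 fold change 0.76, SE 0.23, limma adjusted p = 0.297). It was the single gene of this list with an unadjusted p under 0.05.

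Downstream of the membrane, 14 genes of mitochondrial release, apoptosome and caspases had a median log2 fold change of -0.02, with 7 positive. The outer membrane channels VDAC1, VDAC2 and VDAC3 were the most abundant. VDAC2, the partner that BAK binds on mitochondria, stood at 91.3 and 93.9 FPKM in CfzR and at 110 and 104 FPKM in WT. VDAC1 stood at 199 and 175 FPKM in CfzR and at 178 and 155 FPKM in WT, and VDAC3 at 78.9 and 84.2 FPKM in CfzR and at 71.3 and 78.1 FPKM in WT. The channels were thus not all on the same side of WT. ENDOG, a mitochondrial nuclease named after its values were seen, was the single gene of the list with an unadjusted p under 0.05 (log2 fold change -0.70, limma adjusted p = 0.374). It stood at 42.9 and 63.4 FPKM in CfzR and at 78.2 and 92.7 FPKM in WT. The log2 fold change was -0.45 after the length and GC correction. Leaving out CfzR replicate 1 gave -0.42, and leaving out CfzR replicate 2 gave -0.97.

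Of 5 inhibitor of apoptosis genes tested, 3 had positive log2 fold changes (median 0.12), and BIRC3 and BIRC6 had an unadjusted p under 0.05. BIRC3, the ubiquitin ligase cIAP2 and an NF-kB target, was, like BIRC6, named after its values were seen. It stood at 2.97 and 2.35 FPKM in CfzR and at 0.0789 and 0.222 FPKM in WT (log2 fold change 1.67, limma adjusted p = 0.0745). BIRC3 met the minimum mean of 1 FPKM through the CfzR libraries, and its log2 fold change was 3.52 with a pseudocount of 0.1 and 0.57 with one of 5, so its size is not fixed by these data. BIRC5 (survivin) stood at 87.8 and 109 FPKM in CfzR and at 99.7 and 120 FPKM in WT. BIRC2 (cIAP1) stood at 26.4 and 37.1 FPKM in CfzR and at 26.2 and 31.2 FPKM in WT. XIAP, which blocks caspases directly, stood at 13.2 and 19.05 FPKM in CfzR and at 20.4 and 19.2 FPKM in WT. None of these last 3 was apart by more than a narrow margin.

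In the death receptor pathway 5 of 9 genes were positive (median 0.11), with 0 at an unadjusted p under 0.05. CFLAR, the caspase-8 inhibitor c-FLIP, stood at 65.7 and 128 FPKM in CfzR and at 104 and 169 FPKM in WT. CASP8 stood at 43.8 and 36.8 FPKM in CfzR and at 37.97 and 32.5 FPKM in WT, and FADD, its adaptor, at 28.8 and 33.2 FPKM in CfzR and at 31.5 and 37.2 FPKM in WT. The groups overlapped for all 3. Of 9 genes for turnover of MCL1, BIM and NOXA proteins, 3 were positive (median -0.11). HUWE1, a ligase for MCL1, stood at 23.3 and 15.4 FPKM in CfzR and at 18.9 and 14.3 FPKM in WT, FBXW7, another, at 20.04 and 24.98 FPKM in CfzR and at 25.6 and 28.6 FPKM in WT, and RNF7 at 63.4 and 77.8 FPKM in CfzR and at 74.9 and 77.1 FPKM in WT.

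Of 11 transcription factors known to act on family genes, 7 were positive (median 0.06), with 0 at an unadjusted p under 0.05. ATF4, the stress factor that drives PMAIP1 in response to proteasome inhibitors, stood at 684 and 730 FPKM in CfzR and at 790 and 846 FPKM in WT, lower in both CfzR libraries (log2 fold change -0.21, limma adjusted p = 0.778), but 0.14 under quantile normalization. RELA, an NF-kB subunit, stood at 53.04 and 41.3 FPKM in CfzR and at 52.6 and 44.1 FPKM in WT. DDIT3 (CHOP) stood at 44.5 and 70.5 FPKM in CfzR and at 46.1 and 49.1 FPKM in WT. Of 12 p53 targets outside the family, 7 were positive (median 0.15), and GADD45A, named after its values were seen, had an unadjusted p under 0.05 (log2 fold change 0.48, limma adjusted p = 0.431). MDM2 stood at 45.4 and 77.5 FPKM in CfzR and at 58.4 and 65.9 FPKM in WT, DDB2 at 49.4 and 81.7 FPKM in CfzR and at 64.0 and 88.5 FPKM in WT, and TP53I3 at 39.5 and 44.2 FPKM in CfzR and at 36.9 and 36.7 FPKM in WT.

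**Figure D5:**
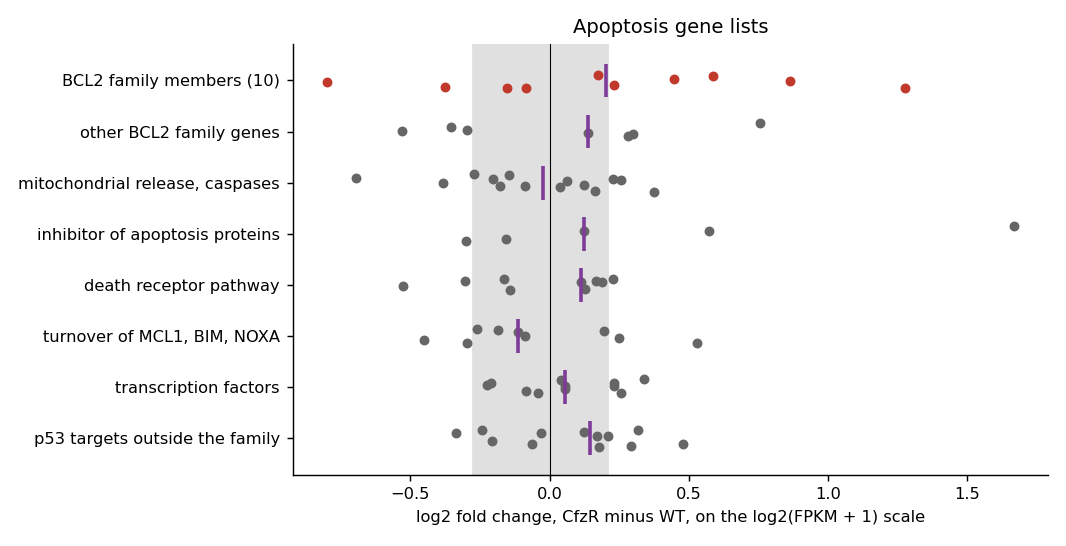
Log2 fold change, CfzR minus WT, on the log2(FPKM + 1) scale (x axis) of each tested gene in 8 lists (rows), with the median of each list as a purple line and the middle 50% of all tested genes as a grey band. The BCL2 family members spread from -0.80 (BAK1) to 1.28 (BCL2), and BIRC3 at 1.67 lies farthest right among the inhibitors of apoptosis.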

How the data were processed

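The authors deposited 1 table of FPKM values with 15201 Ensembl gene IDs and a column per library. Per the submitters' processing notes, STAR and Cufflinks were used. Not given in the sources used here are tool versions, build, gene annotation and whether strand was used. Per the labels' protocols, RNA came from TRIzol extraction and libraries from an mRNA protocol. The columns named for the drug were taken as CfzR and those named as controls as WT, the only other group. FPKM holds no counts, so the depth is unknown and counting error could not be computed. The lowest row mean was 0.500 FPKM. Median FPKM was 7.75 and 7.73 in CfzR and 7.50 and 7.74 in WT, while summed FPKM was 673265 and 877849 in CfzR and 918617 and 955284 in WT, lowest in CfzR replicate 1.

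Symbols were matched by ID for 15027 genes, and length and GC share (longest GENCODE 29 transcript) for 14492. Values were taken as log2(FPKM + 1), which understates changes of low genes. The 13411 genes whose mean reached 1 FPKM were fitted with limma 3.58.1 in R 4.3.3 (mean-variance trend, two-sided, Benjamini-Hochberg over all genes tested). Intervals are 95% from that fit. Ratios used FPKM without a pseudocount. The procedure was tested on simulated data. The members and lists were chosen with earlier results of these data known. The text names all members and, per list, the 3 genes with the highest mean FPKM; genes outside this rule are said to be. Alternatives were other pseudocounts and filters, trimmed means of M-values (TMM) and quantile scaling, no trend, a replicate block, a length and GC correction by splines with 4 degrees of freedom, and leaving out each library. Listed genes with no value here are not analysed here.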

Additional observations from a re-analysis of the deposited data

How the results depend on the processing

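The count of members past the adjusted threshold was 0 under a filter at 5 FPKM or none, pseudocounts of 5 or 0.1, TMM scaling, quantile normalization, no mean-variance trend, the length and GC correction and without any 1 library. With a replicate block it was 3, both without and with the length and GC correction: BCL2 (adjusted p = 3.24e-06 and 0.0144), BMF (0.00141 and 0.0184) and BAK1 (0.00409 and 0.0367). Over all genes the block gave 1242 calls (487 higher, 755 lower) and, with the correction, 640, against 47 (33 higher, 14 lower) in the fit without it. The labels do not say that equal numbers pair libraries, there are 2 pairs only, and the deviations of equal-numbered libraries had a correlation of 0.252 across genes. With the block, 1 residual degree of freedom is left. Without the correction, the p-values of the block fit are those of a normal distribution. The spread of each gene was thus taken from the trend over all genes and not from its own libraries. The filter at 5 FPKM gave 27 calls. Leaving out 1 library gave from 16 to 260 calls over all genes; these fits assume that the lone library varies like the other group. The scalings moved the median of all genes by less than 0.1 on the log2 scale.

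Of 139 member values under the 14 alternatives, 126 kept direction and side of the threshold, 6 passed under the block and 7 turned sign, those of BAX, MCL1, BCL2A1 and BID. BAX turned to 0.11 under quantile normalization and to 0.13 after the length and GC correction, with and without the block. When 1 library was left out, BAX ran from -0.37 to 0.20, MCL1 from -0.015 to 0.48, BCL2A1 from -0.030 to 0.92 and BID from -0.50 to 0.19. Among the other named genes, quantile normalization turned BIRC5 to 0.018, RNF7 to 0.044, ATF4 to 0.14, RELA to 0.095 and MDM2 to 0.066. The length and GC correction, with or without the block, turned BIRC2 to -0.052, FADD to 0.030 and RELA to 0.054. Leaving out 1 library gave -0.76 to 0.047 for BAD, -0.11 to 0.36 for BIRC2, -0.26 to 0.033 for RNF7, -0.088 to 0.48 for HUWE1, -0.094 to 0.56 for DDIT3, -0.22 to 0.14 for RELA, -0.60 to 0.12 for DDB2 and -0.44 to 0.32 for MDM2. The cause was not tested. BIRC3 passed without the mean-variance trend (adjusted p = 0.0447) and under the block. Its log2 fold change was 1.58 without WT replicate 1 and 1.76 without WT replicate 2. BIK passed under the block (adjusted p = 0.0381, and 0.0310 with the correction), and ENDOG under the block alone (0.0201). BVES, STS and ACBD7, the genes closest to BCL2 in pattern, also passed under the block with and without the correction. They were picked for their likeness to BCL2, so this adds nothing to its result. Of 161 ratio differences under alternatives, 153 moved by less than the SD between replicates and 8 by more, and 6 turned sign. The BCL2 ratio to the summed pro-apoptotic genes stayed between 1.05 and 1.95 on the log2 scale, and those of MCL1 and BCL2L1 ran from -0.11 to 0.69 and from -0.04 to 0.53.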

Other observations

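The 3 tested genes outside the family whose 4 values lay closest to those of BCL2 were BVES, STS and ACBD7. Likeness was the Euclidean distance between deviations from the gene mean on log2(FPKM + 1) over the 4 libraries, and it was 0.0601, 0.107 and 0.108. BVES, which encodes an adhesion protein of epithelia and muscle, stood at 5.24 and 3.23 FPKM in CfzR and at 1.25 and 1.14 FPKM in WT. STS, the steroid sulfatase, stood at 33.4 and 21.97 FPKM in CfzR and at 11.8 and 11.0 FPKM in WT. ACBD7, which encodes an acyl-CoA binding domain protein, stood at 17.8 and 13.0 FPKM in CfzR and at 5.94 and 6.03 FPKM in WT. None of the 3 passed the adjusted threshold in limma (adjusted p of 0.163, 0.138 and 0.110).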
